A study of Mus musculus with 24 samples.

Results

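The glial connexins examined here were 5 genes, Gja1 (Cx43), Gjb6 (Cx30), Gjb2 (Cx26), Gjc1 (Cx45) and Gjc3 (Cx29), out of 49671 genes in the count table. They were taken from a list of gap junction genes of astrocytes and oligodendrocytes and found by their Ensembl identifiers in the Gencode annotation. No measured value entered the rule, but the members were chosen with earlier results of these data known. All 5 passed the filter on low counts that left 19691 genes for testing.

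Connexins are membrane proteins that assemble into rings, and a ring docks with its counterpart on the next cell to form a gap junction channel for ions and small metabolites. Astrocytes of the brain are joined into networks mainly by Cx43 and, as they mature, by Cx30, with Cx26 at lower levels. Oligodendrocytes use other family members, Cx32 (Gjb1) among them, and carry Cx29 in the myelin sheath. Cx45 is best known from the cardiac conduction system, vascular smooth muscle and some neurons.

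Polyadenylated RNA was sequenced in 24 mouse libraries, 4 in each of 6 groups. NSCs were neural stem cells from a single embryonic stem cell line (GSC-5003, from C57Bl/6 N mice), kept in FGF and EGF at passages 50 to 60, and AGES were astrocytes made from them with 20 ng/ml BMP4 for 3 to 5 days. Both groups thus rest on 1 cell line, and their replicates were cultures of different passages. Primary astrocytes came from wild-type C57BL/6J mice aged 4 to 8 days (neoAC) or 100 to 140 days (AdAC), with 2 mice pooled per isolation, and were captured on magnetic beads against ACSA-2, an epitope of the Atp1b2 product. They were frozen at once (direct) or grown for 7 to 10 days in vitro (CellC), and each replicate was an isolation of its own. Stem cell-derived and primary cells thus came from different C57BL/6 substrains, which cannot be told apart from the kind of cell. Neonatal and adult brains were dissociated with different kits, so age and kit cannot be told apart. The methods describe removal of the meninges for neonatal brains only.

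Library totals ran from 27904126 to 37997368 counts. Levels are given in CPM, the count relative to the library total after TMM scaling, on which 3 counts per library, the floor used here, were worth 0.0846 to 0.0997 CPM by group. That floor covers counting error only. The labelled cell types were checked on marker lists. The 9 astrocyte markers, Atp1b2 among them, summed to a median of 15094 CPM in AdAC direct, 1030.5 in AdAC CellC, 21321 in neoAC direct and 7672 in neoAC CellC, with 56829 in AGES and 2352 in NSC. Gfap alone averaged 50503 CPM in AGES. A sum without Gfap was added after the values were seen. In it AGES (6755) lay below neoAC direct (19524) and AdAC direct (14926) and above neoAC CellC (4927), NSC (2318) and AdAC CellC (845). The place of AGES above neoAC CellC rested mainly on Aldoc, with means of 3309 CPM in AGES and 393 in neoAC CellC. Aldh1l1 (14.97 against 303 CPM), Aqp4 (245 against 952) and Atp1b2 (911 against 1243) were lower in AGES than in neoAC CellC. Slc1a3, Sox9 and S100b had higher means in AGES, and Slc1a2 was about equal (547 against 542 CPM). Of the 8 markers of mature oligodendrocytes none was at the floor in all 4 libraries of a group. Opalin, however, had as few as 2 counts in AGES and 3 in neoAC direct and neoAC CellC. The 8 markers summed to 26880.1 to 29753 CPM in AdAC direct and 4379.8 to 11194 in AdAC CellC. Their sum was 252 to 339 CPM in neoAC CellC, 324 to 398 in neoAC direct, 23.3 to 43.5 in AGES and 18.5 to 28.1 in NSC. The 5 markers of leptomeningeal fibroblasts summed to a median of 1335 CPM in AdAC CellC, 382 in neoAC CellC, 219 in neoAC direct and 88.4 in AdAC direct, and to 3.64 in NSC and 1.21 in AGES. The 4 markers of ependymal cells summed to a median of 1526 CPM in neoAC CellC, 1215 in AdAC direct, 259 in AdAC CellC and 162 in neoAC direct. Their median was 65.1 CPM in AGES and 19.5 in NSC. In bulk RNA, fewer cells of a type and less RNA per cell cannot be told apart.

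The 3 stretches of DNA shown next lie directly upstream of the astrocytic connexin genes, which all fell on culture at both ages. They are the 250 bases before the RefSeq start, read 5′ to 3′ on the strand of the gene (GRCm38.p6). Gjb6 and Gjb2 are neighbours on the minus strand of chromosome 14, 18600 bases apart. Their stretches are chr14:57133612-57133861 (Gjb6) and chr14:57104703-57104952 (Gjb2), and that of Gja1 is chr10:56377050-56377299 on the plus strand. Capitals mark motif matches, searched on both strands.
Gjb6: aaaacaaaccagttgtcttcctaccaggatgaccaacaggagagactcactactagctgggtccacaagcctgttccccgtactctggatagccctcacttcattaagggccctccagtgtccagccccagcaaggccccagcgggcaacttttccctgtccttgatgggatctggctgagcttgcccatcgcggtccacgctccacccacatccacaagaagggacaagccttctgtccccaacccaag
Gjb2: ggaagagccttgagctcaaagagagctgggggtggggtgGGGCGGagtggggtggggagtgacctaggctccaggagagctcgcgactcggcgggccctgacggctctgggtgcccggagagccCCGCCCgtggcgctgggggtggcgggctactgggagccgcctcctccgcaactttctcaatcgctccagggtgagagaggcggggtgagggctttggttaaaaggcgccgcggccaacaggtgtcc
Gja1: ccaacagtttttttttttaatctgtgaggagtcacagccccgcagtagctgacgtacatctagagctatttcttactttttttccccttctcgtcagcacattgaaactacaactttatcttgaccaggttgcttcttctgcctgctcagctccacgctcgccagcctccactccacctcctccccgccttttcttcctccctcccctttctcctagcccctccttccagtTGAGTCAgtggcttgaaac
In the Gjb2 stretch 69.2% of the bases were G or C, with 18 CpG, and it held 2 GC boxes (GGGCGG), 211 bases before the start on the strand of the gene and 126 bases before it on the other strand. The Gjb6 stretch had 56.8% G or C, 5 CpG and none of the motifs searched. The Gja1 stretch had 6 CpG and 1 AP-1 site (TGANTCA), 19 bases before the start. Over 32851 upstream stretches of the same length in the RefSeq table the median was 52.4% G or C and 6 CpG, 32.7% held a GC box and 6.7% an AP-1 site. A TATA box (TATAAA, 12.4% of all stretches) was in none of the 3. A CCAAT box (CCAAT, 33.8% of all stretches) stood in that of Gjc3, 85 bases before its start. Matching letters are a description of the window and no sign of binding.

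**Figure D1:**
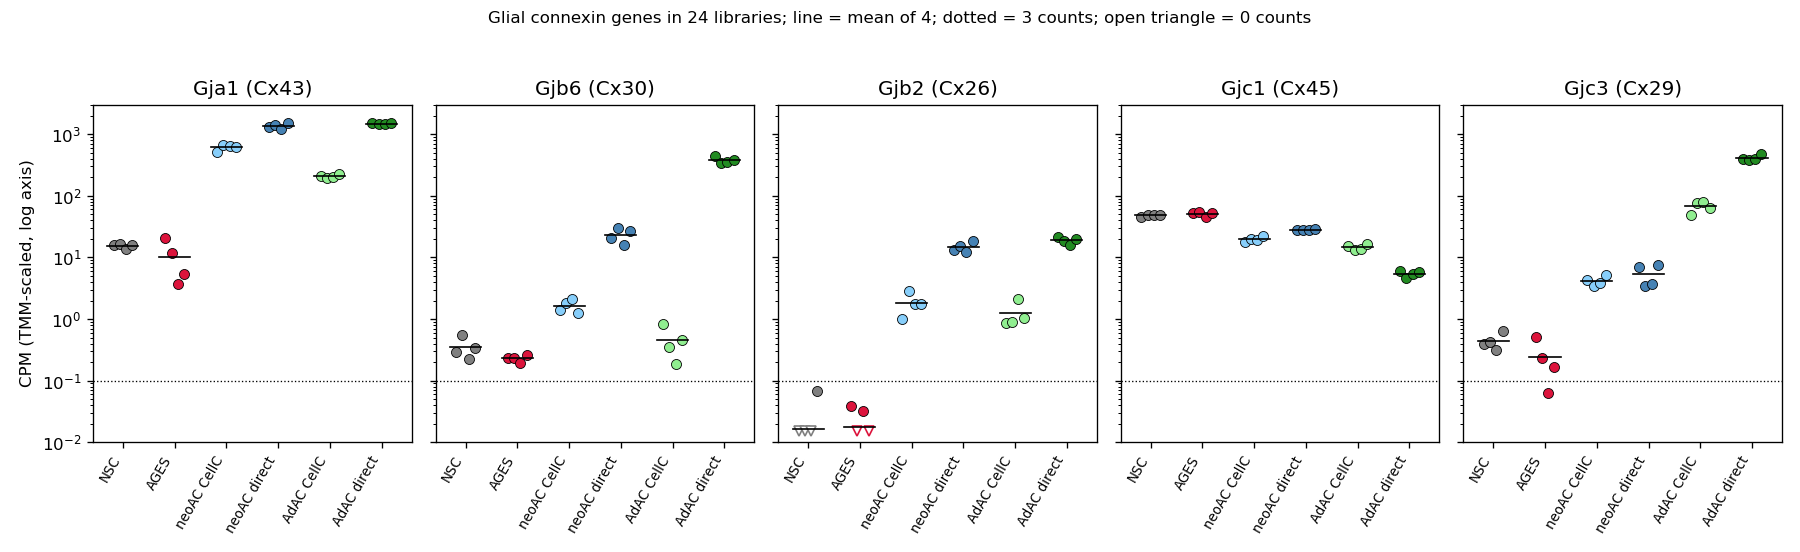
CPM of the 5 connexin genes in each library (log axis, TMM-scaled) by group, with the mean of 4 as a line, 3 counts as a dotted line and libraries with 0 counts as open triangles. Gja1, Gjb6, Gjb2 and Gjc3 had their highest means in AdAC direct, at 1491, 381, 19.03 and 408 CPM, whereas Gjc1 was lowest there, at 5.43.

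Gja1 (ENSMUSG00000050953, chr10:56377330-56402513, plus strand) encodes Cx43, the main gap junction protein of astrocytes. The 4 AdAC direct libraries held 1538, 1453, 1442 and 1529.7 CPM and those of neoAC direct 1297, 1398, 1196 and 1546. After culture the values were 506, 665, 653 and 628 CPM in neoAC CellC and 212, 193, 204 and 226 in AdAC CellC. NSCs held 16.01, 16.8, 13.5 and 15.8 CPM, and AGES 20.4, 11.7, 3.68 and 5.398. The directly isolated groups overlapped each other and lay above every cultured library, and every primary library lay above all of the NSC and AGES libraries. Per length of exon, Gja1 ranked 180 among 19633 genes in AdAC direct, 244 in neoAC direct, 2539 in AdAC CellC and 657 in neoAC CellC, but 10785 in NSC and 11713 in AGES.

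Culture lowered Gja1 at both ages, and more in adult cells. It went from 1491 ± 49.98 CPM (SD, n = 4, as for each ± here) in AdAC direct to 209 ± 13.9 in AdAC CellC, a log2 fold change of -2.84 (SE 0.29, adjusted p = 6.87e-09, edgeR quasi-likelihood test with Benjamini-Hochberg adjustment over all tested genes, as for every gene here). In neonatal cells it went from 1359 ± 149 to 613 ± 73.2 CPM (-1.15, SE 0.27, adjusted p = 0.000838). The difference between these changes, the interaction of culture and age, was -1.69 (SE 0.39, adjusted p = 0.000531). The directly isolated groups did not differ beyond their spread (neonatal minus adult -0.13, 95% interval -0.66 to 0.40, adjusted p = 0.672), while cultured neonatal cells held 2.94-fold more Gja1 than cultured adult cells (1.55, SE 0.28, adjusted p = 3.92e-05).

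AGES held less Gja1 than any cultured primary library, 59.4-fold less than neoAC CellC (-5.90, SE 0.34, adjusted p = 2.82e-13) and 20.2-fold less than AdAC CellC (-4.35, SE 0.32, adjusted p = 2.09e-11). The AGES libraries were widely spread, with a coefficient of variation of 73.5% against 9.11% in NSC. The change from NSC to AGES was -0.60 (SE 0.29, 95% interval -1.18 to -0.02, adjusted p = 0.0785), and the groups overlapped, since AGES replicate 1 exceeded all NSC libraries and the other 3 lay below them. Without AGES replicate 1 the change passed the test (-1.15, adjusted p = 8.15e-05). The astrocyte markers of the same AGES libraries summed to 55371 to 60329.6 CPM. Gja1 equalled 0.0183% of that sum in AGES, 0.673% in NSC, 7.98% in neoAC CellC, 6.29% in neoAC direct, 9.87% in AdAC direct and 20.7% in AdAC CellC. Without Gfap these shares were 0.151% in AGES, 0.683% in NSC, 12.6% in neoAC CellC, 6.83% in neoAC direct, 9.98% in AdAC direct and 25.2% in AdAC CellC, so AGES stayed lowest.

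Gjb6 (ENSMUSG00000040055, chr14:57123303-57133611, minus strand) encodes Cx30, the second astrocytic connexin, which appears late in postnatal development. The AdAC direct libraries held 446, 342, 351 and 385 CPM and those of neoAC direct 20.7, 30.2, 15.8 and 27.1. In culture the values were 1.404, 1.83, 2.08 and 1.27 CPM for neoAC CellC and 0.8288, 0.3498, 0.186 and 0.465 for AdAC CellC, the latter from 7 to 27 counts. NSCs held 0.293, 0.546, 0.223 and 0.334 CPM (7 to 18 counts) and AGES 0.234, 0.232, 0.192 and 0.263 (6 to 8 counts). AdAC direct stood clear above every other group, and AdAC CellC overlapped with NSC and AGES.

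On culture of adult cells Gjb6 fell 833-fold (-9.72, SE 0.27, adjusted p = 1.85e-19), which placed it at rank 6 from the lowest of 19691 genes. In neonatal cells it fell 14.2-fold (-3.82, SE 0.21, adjusted p = 1.19e-13), and the changes differed by -5.90 (SE 0.35, adjusted p = 3.84e-13). Before culture, adult cells held 16.3-fold more Gjb6 than neonatal ones (neonatal minus adult -4.02, SE 0.19, adjusted p = 2.51e-15). After culture the order was turned, with 1.65 ± 0.374 CPM in neoAC CellC and 0.457 ± 0.273 in AdAC CellC (1.88, SE 0.32, adjusted p = 1.63e-05).

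AGES held 7.15-fold less Gjb6 than neoAC CellC (-2.82, SE 0.38, adjusted p = 3.13e-07). At the bottom of the order neighbours did not differ beyond their spread, neither AdAC CellC and NSC (0.34, adjusted p = 0.475) nor NSC and AGES (AGES minus NSC -0.60, 95% interval -1.61 to 0.40, adjusted p = 0.316). Between AGES and AdAC CellC the change was -0.95 (SE 0.48, 95% interval -1.89 to -0.01, adjusted p = 0.0772). It passed under the DESeq2 Wald test (-0.93, adjusted p = 0.0283), with library totals as the only scaling (-1.17, adjusted p = 0.0334) and without AdAC CellC replicate 3 (-1.23, adjusted p = 0.0188). Relative to the summed astrocyte markers Gjb6 equalled 2.52% in AdAC direct, 0.108% in neoAC direct, 0.0481% in AdAC CellC and 0.0214% in neoAC CellC. That sum was itself 14.6-fold lower in AdAC CellC than in AdAC direct and 2.82-fold lower in neoAC CellC than in neoAC direct (17.6-fold and 4.08-fold without Gfap), and its part in the changes of Gja1 and Gjb6 was not tested.

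Gjb2 (ENSMUSG00000046352, chr14:57098600-57104702, minus strand), next to Gjb6, encodes Cx26, a connexin of the leptomeninges and the inner ear that some astrocytes also carry. Its values were 21.3, 18.8, 16.1 and 19.9 CPM in AdAC direct and 13.2, 15.5, 12.1 and 18.2 in neoAC direct. Cultured cells held 0.998, 2.88, 1.75 and 1.77 CPM (neoAC CellC) and 0.8595, 0.904, 2.15 and 1.05 (AdAC CellC). NSC libraries had 0, 0, 0 and 2 counts and AGES libraries 1, 0, 1 and 0, so both groups were at the floor and no fold is given between them. The directly isolated groups overlapped each other and lay above the cultured groups, which also overlapped each other.

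On culture Gjb2 fell 15.3-fold in adult cells, from 19.03 ± 2.19 to 1.24 ± 0.612 CPM (-3.92, SE 0.28, adjusted p = 3.45e-12), and 7.96-fold in neonatal cells, from 14.7 ± 2.69 to 1.85 ± 0.776 CPM (-2.98, SE 0.27, adjusted p = 5.07e-10). The interaction of culture and age was -0.94 (SE 0.38, adjusted p = 0.0310). It missed the threshold without any 1 of 7 libraries, with adjusted p from 0.0549 to 0.135: AdAC CellC replicates 1 (-0.79), 2 (-0.80) and 4 (-0.86), AdAC direct replicate 1 (-0.88), neoAC CellC replicate 2 (-0.63) and neoAC direct replicates 1 (-0.89) and 3 (-0.85).

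Neither age comparison of Gjb2 passed, with -0.37 (95% interval -0.84 to 0.10, adjusted p = 0.169) between neoAC direct and AdAC direct and 0.57 (95% interval -0.01 to 1.14, adjusted p = 0.0936) between neoAC CellC and AdAC CellC. The latter passed with the size factors of DESeq2 (0.68, adjusted p = 0.0482), without AdAC CellC replicate 3 (0.99, adjusted p = 0.00492) and without neoAC CellC replicate 1 (0.77, adjusted p = 0.0211), and the former in a fit of the compared groups alone (-0.34, adjusted p = 0.0379). Taking AGES at 3 counts per library, Gjb2 was at least 18.6-fold lower there than in neoAC CellC (adjusted p = 5.25e-10) and at least 12.5-fold lower than in AdAC CellC (adjusted p = 8.15e-09). The summed markers of leptomeningeal fibroblasts, which also carry Cx26, were 14.4-fold higher in AdAC CellC than in AdAC direct and 1.86-fold higher in neoAC CellC than in neoAC direct. The collagen genes Col1a1 and Col1a2 made up nearly all of this sum (813 and 446 CPM in AdAC CellC). Of the 5 markers, 4 were higher after culture at both ages, whereas Slc6a13, a transporter of the leptomeninges, was lower, as Gjb2 was, at 4.499 CPM in AdAC direct and 0.389 in AdAC CellC, and at 13.4 in neoAC direct and 8.65 in neoAC CellC. Gjb2 equalled 21.7% of the sum in AdAC direct, 0.09796% in AdAC CellC, 7.12% in neoAC direct and 0.468% in neoAC CellC, and the part of such cells in its levels was not tested.

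Gjc1 (ENSMUSG00000034520, chr11:102799579-102819700, minus strand) encodes Cx45, listed here as a glial gap junction gene, yet it was lowest in directly isolated adult astrocytes. AGES held 52.04, 54.1, 45.8 and 53.4 CPM and NSCs 45.6, 48.1, 49.3 and 49.4. The neonatal cells held 27.8, 28.2, 28.2 and 28.5 CPM before culture and 17.9, 20.3, 18.8 and 22.3 after it, and the adult cells 15.5, 13.4, 13.9 and 16.5 in AdAC CellC and 5.93, 4.63, 5.47 and 5.698 in AdAC direct. AGES and NSC overlapped, and from NSC downwards each group lay clear of the next.

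Culture raised Gjc1 2.73-fold in adult cells, from 5.43 ± 0.563 to 14.8 ± 1.41 CPM (1.45, SE 0.09, adjusted p = 2.60e-13), and lowered it 1.42-fold in neonatal cells, from 28.2 ± 0.293 to 19.8 ± 1.89 CPM (-0.51, SE 0.09, adjusted p = 1.11e-05). The changes differed by 1.96 (SE 0.13, adjusted p = 6.82e-13). Directly isolated neonatal cells held 5.19-fold more Gjc1 than adult ones (2.38, SE 0.09, adjusted p = 3.34e-17), and after culture the difference was 1.34-fold (0.42, SE 0.09, adjusted p = 0.000152). NSCs exceeded neoAC direct, the next group in order, by 0.77 (adjusted p = 7.06e-09). AGES exceeded AdAC CellC 3.46-fold (1.79, SE 0.09, adjusted p = 8.98e-16) and neoAC CellC 2.59-fold (1.37, SE 0.09, adjusted p = 1.61e-13).

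AGES minus NSC was 0.09 for Gjc1 (SE 0.08, 95% interval -0.07 to 0.26, adjusted p = 0.333). It passed under the DESeq2 Wald test (0.18, adjusted p = 0.0401), in a fit of these groups alone (0.19, adjusted p = 0.0426) and when genes needed 10 counts in each library (0.20, adjusted p = 0.0247). The 2 markers of dividing cells summed to a median of 4.26 CPM in AGES, where Gjc1 was high, and 8.05 in AdAC direct, where it was lowest, against 276 in neoAC direct, 494 in AdAC CellC, 544 in neoAC CellC and 2343 in NSC. The 4 markers of mural cells, a cell type with Cx45, summed to 925 CPM in AdAC CellC, 474 in neoAC CellC, 299 in AdAC direct and 288 in neoAC direct, but to 5.69 in AGES and 1.45 in NSC. Acta2, which is not particular to mural cells, was the 1 marker of the 4 that was higher after culture, at 813 CPM in AdAC CellC against 69.7 in AdAC direct and at 429 in neoAC CellC against 6.26 in neoAC direct. The other 3 were lower after culture at both ages, Pdgfrb at 69.1 against 139.96 CPM and Rgs5 at 47.8 against 81.9 in adult cells, and Rgs5 at 1.51 against 169.6 in neonatal cells. The part of either in the levels of Gjc1 was not tested.

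Gjc3 (ENSMUSG00000056966, chr5:137953461-137963098, minus strand) encodes Cx29, a connexin of myelinating glia. AdAC direct libraries held 395, 379.8, 389 and 469.8 CPM and AdAC CellC libraries 48.99, 77.7, 80.5 and 63.1. Neonatal values were 6.92, 3.49, 3.74 and 7.48 CPM before culture and 4.34, 3.38, 3.82 and 5.24 after it. NSCs held 0.391, 0.425, 0.318 and 0.635 CPM and AGES 0.507, 0.232, 0.0641 and 0.165, the latter from 2 to 13 counts. Every adult library exceeded every neonatal one, and every neonatal library exceeded those of NSCs and AGES.

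Gjc3 was 75.5-fold lower in neoAC direct than in AdAC direct (-6.24, SE 0.25, adjusted p = 2.82e-16) and 16.1-fold lower in neoAC CellC than in AdAC CellC (-4.01, SE 0.23, adjusted p = 5.60e-13). Culture lowered it 6.04-fold in adult cells, from 408 ± 41.4 to 67.6 ± 14.6 CPM (-2.59, SE 0.20, adjusted p = 4.05e-11). In neonatal cells 5.41 ± 2.09 and 4.19 ± 0.797 CPM did not differ beyond their spread (-0.36, 95% interval -0.82 to 0.09, adjusted p = 0.176), although without neoAC direct replicate 2 the change passed (-0.53, adjusted p = 0.0484). The interaction of culture and age was -2.23 (SE 0.30, adjusted p = 7.58e-07). AGES held 279-fold less Gjc3 than AdAC CellC (-8.17, SE 0.33, adjusted p = 1.75e-16) and 17.3-fold less than neoAC CellC (-4.16, SE 0.38, adjusted p = 8.95e-10). AGES and NSC did not differ beyond their spread (-0.92, 95% interval -2.04 to 0.20, adjusted p = 0.163), although without AGES replicate 1 the change passed (-1.48, adjusted p = 0.0466).

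The summed markers of mature oligodendrocytes were lower in each comparison of primary groups in which Gjc3 passed as lower. The sum was 82.4-fold lower in neoAC direct than in AdAC direct, 27.6-fold lower in neoAC CellC than in AdAC CellC, 3.43-fold lower in AdAC CellC than in AdAC direct and 265-fold lower in AGES than in AdAC CellC. Gjc3 equalled 1.44% ± 0.0994 of that sum in AdAC direct, 0.8602% ± 0.182 in AdAC CellC, 1.61% ± 0.714 in neoAC direct, 1.39% ± 0.129 in neoAC CellC, 0.786% ± 0.611 in AGES and 2.13% ± 0.759 in NSC. In neonatal cells most of the sum was Cnp, an enzyme of oligodendrocytes and their precursors (297 CPM in neoAC direct and 192 in neoAC CellC). Over the other 7 markers, a sum added after the values were seen, neoAC direct was 529-fold lower than AdAC direct and neoAC CellC 69.4-fold lower than AdAC CellC, and neoAC CellC was 2.25-fold higher than neoAC direct. Gjc3 then equalled 11.7% of the sum in neoAC direct and 4.13% in neoAC CellC, against 1.61% in AdAC direct, 0.958% in AdAC CellC, 0.863% in AGES and 2.38% in NSC. Within AdAC CellC, replicate 1 was lowest in both Gjc3 and the 8 markers, and replicate 3 highest in both. Within AdAC direct and within neoAC CellC, replicate 2 was lowest and replicate 4 highest in both. The order was turned within neoAC direct, where replicate 2 was lowest in Gjc3 and highest in the markers, and replicate 4 the reverse. AGES shared only the lowest library (replicate 3), and NSC shared neither. The part of oligodendrocyte RNA in the levels of Gjc3 was not tested. Of the 50-base words in Gjc3 transcripts 2.07% occur in other genes, against 0.115% or less for the other 4 members. The aligner kept reads with up to 20 alignments, but the counting options given in the paper include none for counting such reads.

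**Figure D2:**
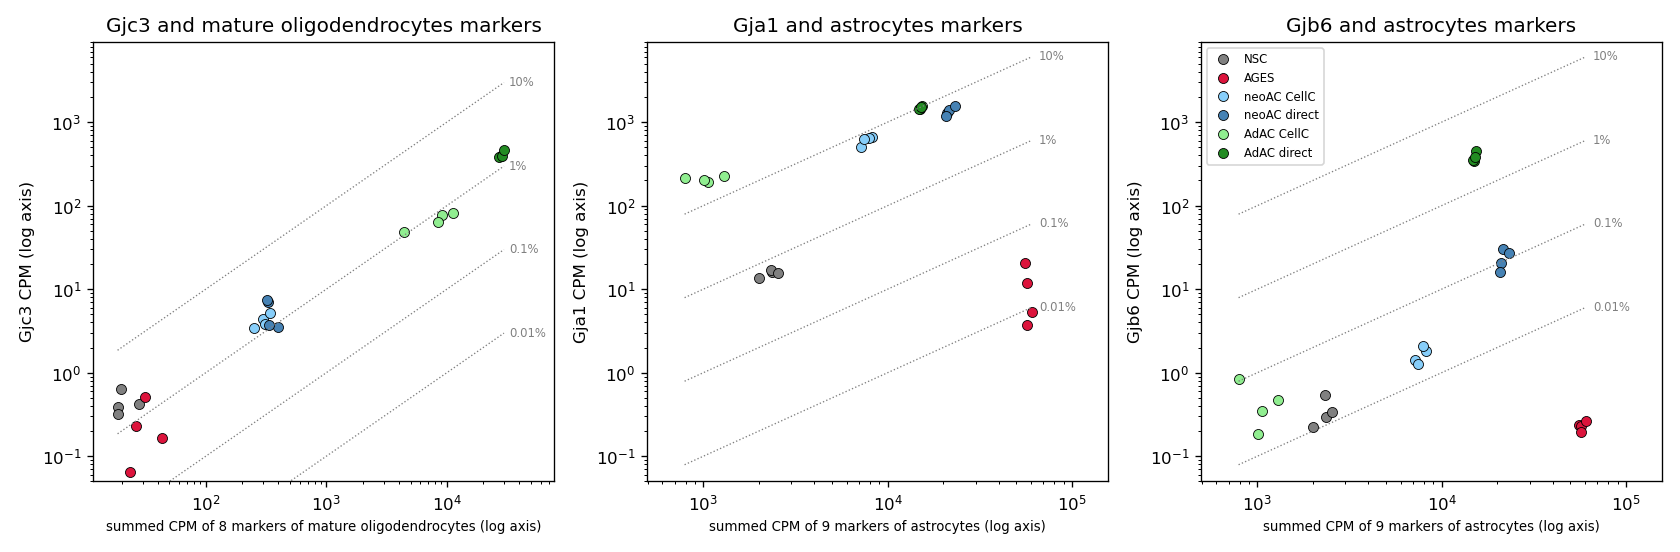
CPM of Gjc3 against the summed CPM of 8 markers of mature oligodendrocytes, and of Gja1 and Gjb6 against 9 astrocyte markers, in each library on log axes, with dotted lines of constant share. Group means of the Gjc3 share ran from 0.786% to 2.13% (without Cnp from 0.863% to 11.7%), while AGES, with Gfap in the sum, held the highest astrocyte marker sums and a Gja1 share of 0.0183% (0.151% without Gfap).

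**Figure D3:**
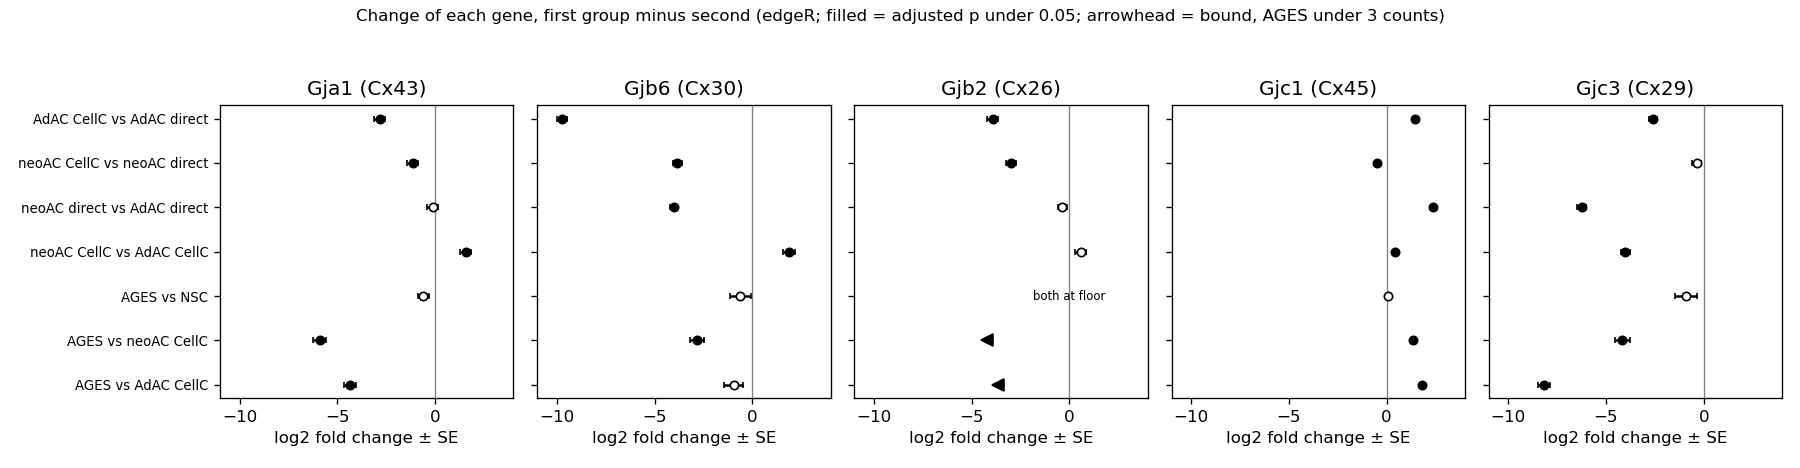
Log2 fold change of each connexin gene (first group minus second) ± SE in the 7 comparisons, with filled symbols for an adjusted p under 0.05 and arrowheads for bounds where AGES was at the floor. Gjb6 in cultured against direct adult cells lies furthest from 0 (-9.72), and no symbol is filled between AGES and NSC.

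By comparison, culture of adult astrocytes lowered 4 of the 5 connexins and raised 1, Gjc1, with a median log2 fold change of -2.84 against 0.00 over all genes. In that comparison 78.0% of all genes passed, 38.8% higher and 39.2% lower. Culture of neonatal astrocytes lowered 4 of the 5, all but Gjc3 (median -1.15, all genes 0.04), and there 65.7% of all genes passed, 34.4% higher and 31.3% lower. By edgeR 0 of the 5 rose, also at an unadjusted p under 0.05 and by the DESeq2 Wald test. The changes on culture differed with age for all 5, Gjc1 in the positive and the other 4 in the negative direction, where 68.6% of all genes passed, 35.4% higher and 33.2% lower. For Gjb2 this call was lost when any of several single libraries was left out.

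Between the ages, neoAC direct held less Gjb6 and Gjc3 and more Gjc1 than AdAC direct (median -0.37, all genes 0.00), where 71.4% of all genes passed, 35.0% higher and 36.4% lower. After culture, neonatal cells held more Gja1, Gjb6 and Gjc1 and less Gjc3 than adult cells (median 0.57, all genes -0.08), where 63.8% of all genes passed, 28.5% higher and 35.2% lower. Between AGES and NSC 0 of the 5 connexins passed in edgeR, also at an unadjusted p under 0.05, and the DESeq2 Wald test called 1, Gjc1 (median -0.60, all genes 0.00), where 65.7% of all genes passed, 31.7% higher and 34.0% lower. AGES held less of 4 of the 5 than neoAC CellC (median -4.16, all genes -0.07), where 74.6% of all genes passed, 34.1% higher and 40.5% lower. Against AdAC CellC 3 of the 5 were lower in AGES (median -4.35, or -3.64 with Gjb2 at its bound, all genes -0.23), where 76.2% of all genes passed, 31.0% higher and 45.2% lower. Gjc1 was the 1 higher in AGES in both. These comparisons share the AGES libraries.

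Since Cx43 and Cx30 both serve the astrocytic network, Gjb6 was set against Gja1 within each library, as counts per length of exon, which no scaling touches. Gjb6 amounted to 111%, 90.3%, 93.5% and 96.6% of Gja1 in the 4 AdAC direct libraries and to 6.12%, 8.28%, 5.08% and 6.72% in neoAC direct. After culture the ratio was 1.07%, 1.06%, 1.22% and 0.779% in neoAC CellC and 1.498%, 0.697%, 0.349% and 0.791% in AdAC CellC. AdAC direct stood clear above all other libraries, and the cultured groups overlapped.

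On the log2 scale this ratio changed by -7.06 on culture of adult cells and by -2.66 on culture of neonatal cells, and neoAC direct minus AdAC direct was -3.92. Each had p = 0.0286 in a two-sided exact permutation test, the smallest that 4 libraries against 4 allow, and 0.0449 after Benjamini-Hochberg adjustment over 11 tests. Between neoAC CellC and AdAC CellC it differed by 0.47 (exact permutation p = 0.371, adjusted 0.409). AGES and NSC, with few counts of Gjb6, had ratios of 12.7% ± 7.85 and 8.49% ± 2.76 (exact permutation p = 0.543). AGES lay above neoAC CellC by 3.38 and above AdAC CellC by 3.85 (exact permutation test, adjusted p = 0.0449 each).

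For the neighbours on chromosome 14, Gjb2 amounted to 5.305%, 6.101%, 5.104% and 5.75% of Gjb6 per length in AdAC direct, against 70.7%, 57.0%, 84.9% and 74.5% in neoAC direct. After culture it was 79.03%, 175%, 93.4% and 155% of Gjb6 in neoAC CellC and 115%, 287%, 1286% and 252% in AdAC CellC, the latter from 7 to 27 counts of Gjb6. The log2 ratio was higher by 5.86 in AdAC CellC than in AdAC direct and by 3.68 in neoAC direct than in AdAC direct (exact permutation test, adjusted p = 0.0449 each), the first by 5.19 without AdAC CellC replicate 3. The change of 0.74 on culture of neonatal cells (adjusted p = 0.0786) and the difference of -1.44 between neoAC CellC and AdAC CellC (adjusted p = 0.105) did not pass the exact permutation test. Libraries of NSCs and AGES with 0 counts of Gjb2 left this ratio undefined, so 11 of 14 planned tests were made.

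**Figure D4:**
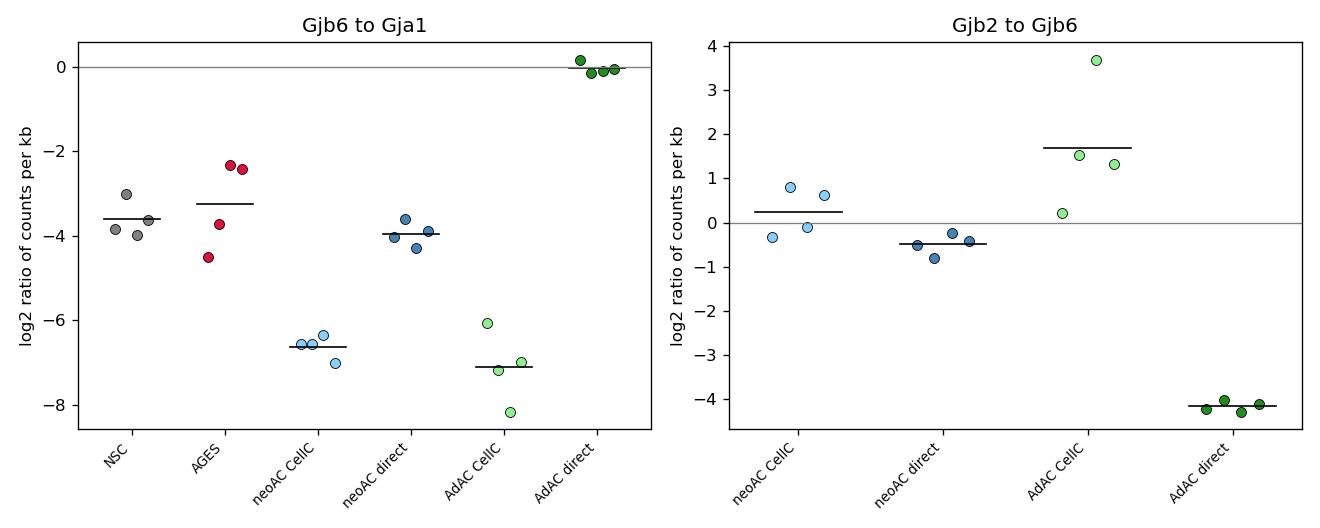
Log2 ratio of counts per kb of exon in each library, Gjb6 to Gja1 in 6 groups and Gjb2 to Gjb6 in the 4 primary groups, with the mean of 4 as a line and 0 for equal counts per kb. The mean ratio of Gjb6 to Gja1 was -0.04 in AdAC direct and -7.09 in AdAC CellC, and Gjb2 exceeded Gjb6 in all 4 AdAC CellC libraries.

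Among all 20 connexin genes in the table, the 5 members made up 97.1% of the summed counts per kb of exon in neoAC direct, 96.7% in neoAC CellC, 83.7% in NSC, 67.6% in AdAC direct, 43.5% in AdAC CellC and 41.9% in AGES. The sum itself was 577 ± 10.3 CPM per kb in AdAC direct, 159 ± 18.9 in neoAC direct, 92.4 ± 16.7 in AdAC CellC, 68.3 ± 7.63 in neoAC CellC, 27.8 ± 3.69 in AGES and 13.6 ± 1.29 in NSC. Gja1 held 83.5% of it in neoAC direct and 87.5% in neoAC CellC. In AdAC direct Gja1 (25.2%), Gjb6 (24.7%) and Gjc3 (16.2%) held the most of the 5, and Gjb1 held 15.5%. In AdAC CellC Gjb1 had 27.6% and Gja1 22.7%. NSCs held mainly Gjc1 (70.8%), which in AGES had 37.5%. These shares depend on the exon lengths of the annotation, which join all transcripts of a gene (10257 bases for Gja1 and 2674 for Gjb6).

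**Figure D5:**
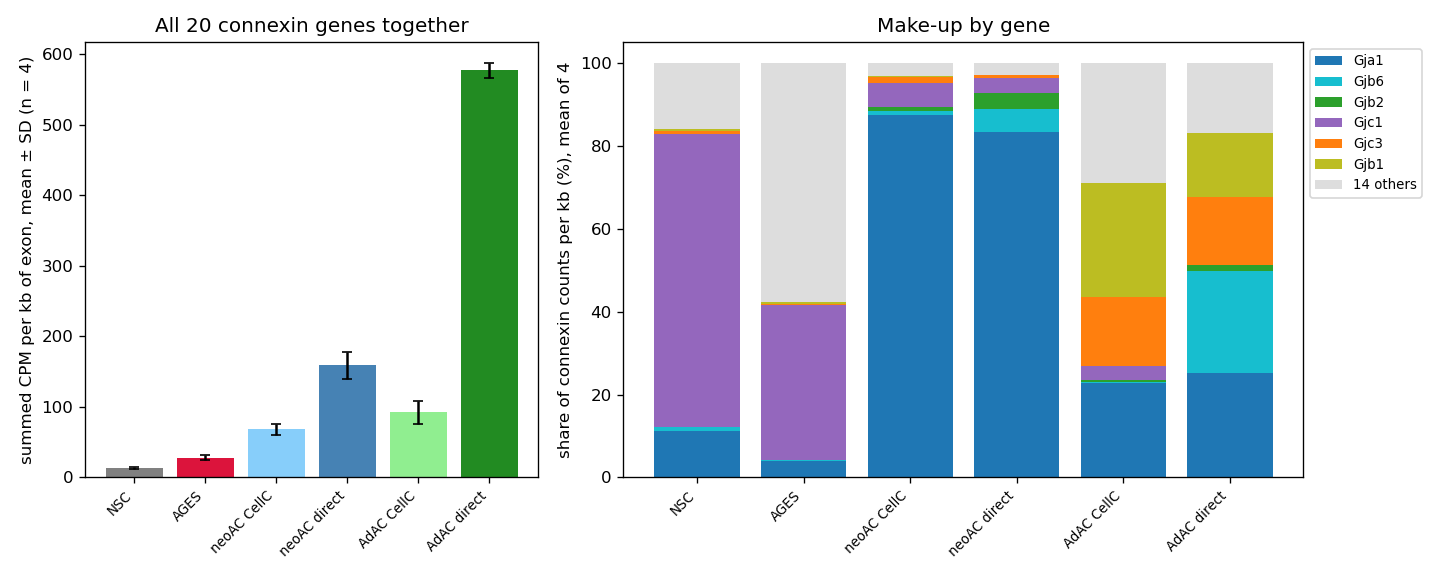
Summed CPM per kb of exon of all 20 connexin genes (bars from 0, mean ± SD of 4 libraries) and the share of each gene in that sum (stacked bars, mean of 4) by group. Gja1 took 83.5% in neoAC direct, Gjc1 took 70.8% in NSC, and Gjb1 and Gjc3 were visible parts of both adult groups.

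Of the 15 other connexin genes, 8 passed the filter. On culture of adult cells 5 of the 8 rose and 2 fell, where 38.8% and 39.2% of all genes did (median 3.82, or 2.69 with 4 genes at their bound). Gjb1, an oligodendrocytic connexin, fell from 153 ± 9.52 to 44.2 ± 12.7 CPM (-1.79, SE 0.17, adjusted p = 1.04e-09). Like Gjc3, it was lower in neoAC direct than in AdAC direct, 609-fold (adjusted p = 1.20e-18). Gja5 (Cx40, of arterial endothelium) rose 9.82-fold on culture of adult cells, to 5.91 ± 1.01 CPM (3.29, SE 0.30, adjusted p = 3.27e-10). In neonatal cells 3 of the 8 rose and 1 fell, Gja4 (Cx37, also endothelial), from 5.87 ± 4.31 to 0.542 ± 0.146 CPM (-3.43, SE 0.54, adjusted p = 6.20e-06), against 34.4% and 31.3% of all genes. The 4 endothelial markers summed 25.5-fold lower after culture of neonatal cells, where Gja5 averaged 2.99 CPM against 1.71 in neoAC direct. After culture of adult cells, where Gja5 rose, they summed 1.38-fold lower, but the 4 were split. From AdAC direct to AdAC CellC, Flt1 went from 30.8 to 12.2 CPM and Cldn5 from 15.1 to 4.13. Cdh5 went up from 7.11 to 17.6 CPM and Pecam1 from 9.08 to 10.9. In NSC Gja5 averaged 5.13 CPM, and these markers summed to a mean of 2.11 CPM. The part of endothelial cells in these levels was not tested. Of the neoAC direct libraries replicate 2 stood apart in Gja4 and these markers. It held 239 CPM of the markers against 57.8 to 93.6 in the other 3, and 12.3 CPM of Gja4 against 3.499 to 4.16. Without it the markers were 16.8-fold lower after culture, and Gja4 still fell, from 3.72 ± 0.377 CPM (-2.76, adjusted p = 2.62e-05, edgeR).

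Between AGES and NSC 5 of the 8 other connexins were higher in AGES and 2 lower, against 31.7% and 34.0% of all genes (median 3.27, or 1.20 with 5 genes at their bound). Of the 8, 6 were lower and 1 higher in AGES than in AdAC CellC, where 45.2% of all genes were lower and 31.0% higher. Against neoAC CellC 1 was lower and 2 were higher in AGES, with 40.5% and 34.1% of all genes. Cultured neonatal cells held less of 7 of the 8 than cultured adult cells, as they did of 35.2% of all genes. NeoAC direct held more of 3 and less of 2 than AdAC direct, against 35.0% and 36.4% of all genes.

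Pannexins form channels in a single membrane, related in shape to undocked connexin rings. Panx1 and Panx2 passed the filter, and Panx3 did not. Panx1 stood at 51.1 ± 8.27 CPM in NSC and was 4.04-fold lower in AGES (-2.02, SE 0.13, adjusted p = 3.91e-13). It rose 5.06-fold on culture of adult cells, from 2.74 ± 0.473 to 13.9 ± 1.46 CPM (2.34, SE 0.14, adjusted p = 1.23e-13), and neoAC direct held 7.28-fold more than AdAC direct (2.86, SE 0.14, adjusted p = 4.08e-15). Panx2, at 3.66 ± 0.601 CPM in neoAC direct, fell on culture of neonatal cells (-2.28, SE 0.34, adjusted p = 2.27e-06) and of adult cells (-1.33, SE 0.41, adjusted p = 0.00476).

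All 16 partners and regulators of Cx43 on the list passed the filter. On culture of adult cells 9 rose and 6 fell (median 0.32), so 15 of 16 passed where 78.0% of all genes did. On culture of neonatal cells 6 rose and 4 fell (median 0.05), 10 of 16 against 65.7% of all genes. In AGES 10 were higher and 3 lower than in NSC, 13 of 16 against 65.7% (median 1.02, or 1.09 without Ccn3, which was at the floor in both). Hepacam, an adhesion protein that binds Cx43 and Mlc1, fell with Gja1 on culture of adult cells, from 795 ± 43.6 to 92.95 ± 17.2 CPM (-3.10, SE 0.13, adjusted p = 1.01e-16), but was 5.08-fold higher in AGES than in NSC (2.34, SE 0.13, adjusted p = 1.43e-14). Mlc1, its membrane partner in astrocyte endfeet, stood at 2881 ± 104 CPM in AGES against 491 ± 40.4 in NSC (2.55, SE 0.10, adjusted p = 2.67e-17), 1388 ± 85.1 in neoAC CellC and 225 ± 37.8 in AdAC CellC.

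Cav1, the caveolar coat protein, was 29.3-fold higher in AdAC CellC than in AdAC direct (192 ± 20.6 against 6.56 ± 1.61 CPM, adjusted p = 5.08e-09). Dbn1, an actin-binding protein that holds Cx43 at the membrane, rose 5.42-fold on culture of adult cells (adjusted p = 4.45e-15) and was 3.78-fold higher in AGES than in NSC (adjusted p = 3.59e-13). Ccn3, a secreted protein that binds the Cx43 tail, was at least 99.1-fold lower in AGES than in AdAC CellC (adjusted p = 3.79e-09). Prkca, a kinase that acts on Cx43, stood at 463 ± 73.4 CPM in AGES and 82.5 ± 15.8 in NSC (2.49, SE 0.12, adjusted p = 6.48e-16). Tjp3, a scaffold protein of cell junctions, was 25.3-fold lower in AGES than in neoAC CellC (adjusted p = 1.77e-11). Nedd4, a ubiquitin ligase of Cx43, and Ctnnb1 (β-catenin) rose on culture of adult cells (1.20 and 1.31, adjusted p = 4.88e-13 and 1.59e-15), whereas their changes in neonatal cells were -0.04 and 0.03 (adjusted p = 0.696 and 0.720).

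Likeness of patterns was measured as the root mean square difference of log2 CPM over the 24 libraries, with each gene centred on its own mean. The nearest genes to Gja1 were Pnck (0.53), Tox (0.55) and Slc26a1 (0.62), where Gja1 itself varied by a root mean square of 3.00 around its mean. For Gjb6 (3.78 around its mean) they were Grin2c (0.73), Ucp3 (0.93) and C030018K13Rik (1.03). For Gjb2 (3.21) they were Mir124-2hg (0.58), Pcdh20 (0.66) and Gucy1a1 (0.72), for Gjc1 (1.11) Fnbp1l (0.29), Ubtd2 (0.31) and Slc31a1 (0.34), and for Gjc3 (3.74) Apod (0.66), Slc24a2 (0.73) and Gpr37 (0.75). The libraries fall into 6 groups, so these distances describe mainly the order of the group levels.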

How the data were processed

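Raw gene counts were used as the authors deposited them, 49671 genes in 24 libraries of polyadenylated RNA. Per the labels and methods, the authors demultiplexed reads with bcl2fastq 2.20, aligned them to GRCm38 with STAR 2.7.3a, keeping up to 20 alignments per read, and counted them per gene with featureCounts. The strand setting of the counting is not given in the sources used here. Identifiers were matched to Gencode vM21, which held 49326 of them (99.3%). Counts were tested in edgeR 4.0.16 (R 4.3.3) by the robust quasi-likelihood test on 1 fit of the 6 groups, with TMM scaling and filterByExpr, Benjamini-Hochberg adjustment per comparison and a threshold of 0.05. SE was the log2 fold change over the root of its F statistic, and 95% intervals take a normal distribution, so they are slightly narrower than the test implies. DESeq2 1.42.0, other scalings and filters, fits of the compared groups, a replicate block and leaving out each library were alternatives. The code was tested on simulated counts. Lengths are joined exons.

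The members, lists and tests were chosen with earlier results of these data known. Named beside the members are the 3 most abundant genes of each list, list genes past the threshold with an absolute log2 fold change over 2 and at least 5 CPM in a group, and the 3 most similar genes per member. Some genes that this rule takes in are not reported here. P-values measure the spread between isolations or cultures, which the main edgeR fit estimated per gene over all 6 groups.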

Additional observations from a re-analysis of the deposited data

Results flagged for a closer look

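The change on culture differed between adult and neonatal astrocytes for all 5 connexins by the interaction term of the edgeR fit. Adult minus neonatal, it was -1.69 on the log2 scale for Gja1, -5.9 for Gjb6, -0.94 for Gjb2, 1.96 for Gjc1 and -2.23 for Gjc3, with adjusted p from 3.84e-13 to 0.0310 (Gjb2). Of all tested genes 68.6% passed this term, 35.4% higher and 33.2% lower. The call of Gjb2 was lost when any of several single libraries was left out. Of the 5, Gjc1 was the 1 gene whose changes at each age had opposite signs.

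In 3 of 30 sets of 4 libraries, a single library stood apart from the other 3 by Dixon's criterion, which chance meets in about 1 of 20 sets. NSC replicate 4 held 0.0669 CPM of Gjb2 from 2 counts where the other 3 had 0. With 3 libraries at 0 counts any count above 0 meets the criterion, so that rate does not hold for this set. AdAC CellC replicate 3 held 2.15 CPM of Gjb2, and AdAC direct replicate 4 held 470.0 CPM of Gjc3.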

How the results depend on the processing

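No called value changed sign under any alternative run, and every ratio kept its direction. The calls that changed were these. For Gjb6, AGES against AdAC CellC passed with scaling by library totals (-1.17) and by the DESeq2 Wald test (-0.93), and ran from -1.23 to -0.49 with 1 library left out. For Gjb2, neoAC CellC against AdAC CellC passed with the size factors of DESeq2 (0.68) and its Wald test (0.68) and ran from 0.28 to 0.99, neoAC direct against AdAC direct passed in a fit of the compared groups (-0.34), and the interaction ran from -1.34 to -0.63. For Gjc1, AGES against NSC passed with at least 10 counts per library (0.20), by the Wald test (0.18) and in a fit of the compared groups (0.19). With 1 library left out, Gja1 ran from -1.15 to -0.32 and Gjc3 from -1.48 to -0.60 for AGES against NSC, the number of the 5 that were lower there from 0 to 2 (without AGES replicate 1), and Gjc3 on culture of neonatal cells from -0.53 to -0.17. The cause of these shifts was not tested.

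Counts past the threshold moved by over 1.5 times as follows. Asking for 10 counts in every library left fewer genes to test. Of the 5 connexins only Gja1 and Gjc1 were kept, since Gjb6, Gjb2 and Gjc3 had libraries with fewer counts. The number lower was then 1 instead of 4 for culture of adult cells and 2 instead of 4 for culture of neonatal cells. It was 1 instead of 3 for AGES against AdAC CellC and 1 instead of 4 for AGES against neoAC CellC. It was 0 instead of 1 for neoAC CellC against AdAC CellC and 0 instead of 2 for neoAC direct against AdAC direct. With that filter the number higher was 1 instead of 0 for AGES against NSC, where the estimate of Gjc1, tested in both fits, moved from 0.09 to 0.20. Of all genes, those lower were then 4696 instead of 7722 for culture of adult cells, 3860 instead of 6170 for culture of neonatal cells, 5082 instead of 8897 for AGES against AdAC CellC, 4631 instead of 7977 for AGES against neoAC CellC, 4096 instead of 6941 for neoAC CellC against AdAC CellC and 4259 instead of 7177 for neoAC direct against AdAC direct, and those higher 4135 instead of 6710 for AGES against neoAC CellC. Of the 34 other connexin, pannexin and partner genes, those lower were 4 instead of 7 for culture of neonatal cells, 2 instead of 6 for AGES against NSC, 5 instead of 12 for AGES against AdAC CellC, 5 instead of 9 for AGES against neoAC CellC and 4 instead of 13 for neoAC CellC against AdAC CellC, and those higher 8 instead of 15 for culture of adult cells. With an absolute log2 fold change over 1 required as well, all genes higher were 4596 instead of 7644 for culture of adult cells, 3801 instead of 6766 for culture of neonatal cells, 3846 instead of 6246 for AGES against NSC, 3058 instead of 6105 for AGES against AdAC CellC, 2724 instead of 6710 for AGES against neoAC CellC, 3059 instead of 5620 for neoAC CellC against AdAC CellC and 3249 instead of 6889 for neoAC direct against AdAC direct, all genes lower 4992 instead of 7722 for culture of adult cells, 2628 instead of 6170 for culture of neonatal cells, 3630 instead of 6691 for AGES against NSC, 2813 instead of 6941 for neoAC CellC against AdAC CellC and 4453 instead of 7177 for neoAC direct against AdAC direct, the 34 others higher 4 instead of 9 for culture of neonatal cells and 4 instead of 7 for neoAC CellC against AdAC CellC and the 34 others lower 3 instead of 7 for culture of neonatal cells, 3 instead of 6 for AGES against NSC, 5 instead of 9 for AGES against neoAC CellC, 8 instead of 13 for neoAC CellC against AdAC CellC and 3 instead of 6 for neoAC direct against AdAC direct. By the DESeq2 Wald test 1 instead of 0 for AGES against NSC was higher among the 5, and among the 34 others 11 instead of 7 for neoAC CellC against AdAC CellC were higher. In fits of the compared groups 1 instead of 0 for AGES against NSC was higher among the 5, and 2 instead of 6 for AGES against NSC were lower among the 34 others. Scaling by library totals only moved the split of all genes, higher to lower, from 6766 and 6170 to 8628 and 4468 on culture of neonatal cells, from 6710 and 7977 to 4504 and 9822 for AGES against neoAC CellC, and from 6105 and 8897 to 4817 and 10277 for AGES against AdAC CellC, with median log2 fold changes of 0.27, -0.37 and -0.45 over all genes.

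Groups share replicate numbers in the labels, but the numbers did not pair the samples: over 28 same-numbered pairs the correlations of deviations ran from -0.095 to 0.106, 1 was over 0.1, and 8 were highest with their own number. With the number as a replicate block, Gjb2 passed between neoAC direct and AdAC direct (-0.35, adjusted p = 0.00967 by edgeR), and 2 instead of 6 for AGES against NSC were lower among the 34 others. It changed no other call of the 5 connexins. For the ratios the block allows no p under 0.125 (exact sign-flip test), so no ratio could pass under it. Depth limits Gjb2 in NSC and AGES, which had at most 2 counts per library, and Gjb6 in NSC, AGES and AdAC CellC, with 6 to 27 counts.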
